A study of Homo sapiens with 2 samples.

Results

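The cells described here are the S-phase barcodes outside G2/M of MDA-MB-231 mammospheres, cells with many transcripts of DNA synthesis and a sum of G2/M transcripts under a set limit. They were chosen by measured values: a barcode with at least 1000 UMIs (unique molecular identifiers, the tags that mark single captured transcripts) was taken when 20 S genes summed to at least 0.4% of its UMIs and 12 G2/M genes to under 0.4%. By this rule there were 150 members among 1744 barcodes with at least 1000 UMIs, and among 2000 barcodes in the table. Of these, 70 of 800 came from the library of cells adapted to 2 mM metformin and 80 of 944 from the library of cells kept at 0 mM metformin. MDA-MB-231 is an established line of triple-negative breast cancer with mesenchymal traits, and metformin is a biguanide given for diabetes, with respiratory complex I among its known targets. Both groups came from that 1 line, grew flat in high-glucose DMEM for 30 days at 2 mM or at 0 mM, and then formed mammospheres (floating spheres on low-attachment plates) for 10 days. The spheres were dispersed with trypsin and EDTA, and cDNA was amplified on beads before Nextera XT library preparation. Each dose had 1 library, so no difference has a replicate check, no test was possible, and every interval covers counting error only.

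In a dividing cell, origins of replication are licensed in G1 by loading of the MCM2 to MCM7 helicase ring and fired in S phase, when CDC45 and the GINS complex turn the ring into an active helicase. PCNA then clamps polymerases to the template, RFC loads the clamp, FEN1 and LIG1 join the lagging-strand fragments, and ribonucleotide reductase and thymidylate synthase supply deoxynucleotides. Many of these genes are targets of E2F factors, whose activity is high late in G1 and early in S phase. Mitotic genes such as CCNB1 and CDC20 follow later, and many of their promoters carry a cell-cycle homology region (CHR) read by the DREAM and MuvB complexes.

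Promoter bases of 5 S genes of the rule are shown because an E2F motif was the sequence feature these genes shared most often relative to other promoters, and CCNB2 of the G2/M list is shown as a contrast. Sequences are from RefSeq, build GRCh38.p14, 5′ to 3′ on the gene's own strand, and give the 120 bases before the annotated start. Capitals mark an E2F motif (TTTGGCGC, TTTCGCGC or TTTCCCGC on either strand) in the S genes and a CHR motif (TTTGAA or TTCGAA on either strand) in CCNB2.
PCNA, chr20:5126623-5126742, minus strand: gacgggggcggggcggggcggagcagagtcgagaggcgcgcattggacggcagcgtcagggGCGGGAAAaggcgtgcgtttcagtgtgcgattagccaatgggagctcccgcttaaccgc
TYMS, chr18:657533-657652, plus strand: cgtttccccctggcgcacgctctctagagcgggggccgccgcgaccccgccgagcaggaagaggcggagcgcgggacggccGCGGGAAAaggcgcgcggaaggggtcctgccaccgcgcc
MCM6, chr2:135876444-135876563, minus strand: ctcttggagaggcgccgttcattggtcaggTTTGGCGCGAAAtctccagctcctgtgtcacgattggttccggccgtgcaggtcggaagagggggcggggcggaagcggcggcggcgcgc
GINS2, chr16:85688955-85689074, minus strand: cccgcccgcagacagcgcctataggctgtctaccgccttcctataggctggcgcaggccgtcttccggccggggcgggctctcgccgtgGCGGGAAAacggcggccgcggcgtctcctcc
HELLS, chr10:94545668-94545787, plus strand: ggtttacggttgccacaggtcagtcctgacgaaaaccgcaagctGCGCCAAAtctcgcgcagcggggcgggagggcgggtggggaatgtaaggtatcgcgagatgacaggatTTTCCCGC
CCNB2, chr15:59105026-59105145, plus strand: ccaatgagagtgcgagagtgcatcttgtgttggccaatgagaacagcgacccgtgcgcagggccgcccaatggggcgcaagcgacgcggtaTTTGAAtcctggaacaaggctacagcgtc
In MCM6, 2 E2F motifs on opposite strands overlap in 1 run of capitals, and HELLS carries 2 separate motifs. Over a window of 250 bases before to 50 after the start, 12 of 17 S genes of the rule with a promoter in the table held an E2F motif (70.6%), against 1 of 9 G2/M genes (11.1%) and 2.79% of all 27305 promoters. The CHR motif, short and therefore common, ran the other way, with 11.8% of the S genes, 77.8% of the G2/M genes and 16.6% of all promoters. The CCAAT box was in 76.5% of the S genes, 77.8% of the G2/M genes and 35.7% of all promoters. A motif match is a description of letters in this window and not evidence of binding.

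S-phase barcodes were deeper than barcodes under both thresholds. Their UMIs ranged from 1011 to 13798 with a median of 4379.5 at 2 mM, and from 1022 to 19980 with a median of 4110.5 at 0 mM. Barcodes under both thresholds had medians of 2903.5 UMIs at 2 mM and 3334 at 0 mM, and G2/M barcodes 4352.5 and 5570. At an equal 1000 UMIs, S-phase barcodes held a median of 738 genes at 2 mM and 726.5 at 0 mM, against 705 and 685 under both thresholds. Mitochondrially encoded transcripts made up 4.59% of S-phase UMIs at 2 mM and 5.32% at 0 mM. In all, S-phase barcodes held 357095 UMIs at 2 mM and 381154 at 0 mM, so that 3 UMIs correspond to 8.40 and 7.87 CPM (UMI counts of a class scaled to a common total). Some barcodes lay 1 base apart from another of the same library, 8 of the S-phase barcodes at 2 mM and 15 at 0 mM, and 7 and 13 of these had their neighbour in the same class; 0 barcode sequences were shared between the libraries.

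The label held for most but not all of its defining S markers, and the G2/M genes of the rule are described further below. PCNA, TYMS, MCM5 and GINS2 were highest in S-phase barcodes of both libraries, which the rule itself favours. RRM2, the small subunit of ribonucleotide reductase, was highest in them at 2 mM (232 CPM, against 170 CPM in G2/M barcodes). At 0 mM it was lower in S-phase barcodes (142 CPM) than in G2/M barcodes (228 CPM). Markers of the line were present, with KRT18 at 515 CPM at 2 mM against 498 CPM at 0 mM and VIM at 1599 and 3555 CPM. Of 7 leukocyte markers 4 were in the table, with summed S-phase counts of 3 UMIs in each library and PTPRC and LYZ at 0. The 6 fibroblast markers summed to 1 UMI at 2 mM and 0 at 0 mM, and the 1 endothelial marker in the table, KDR, had 1 UMI in each.

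**Figure D1:**
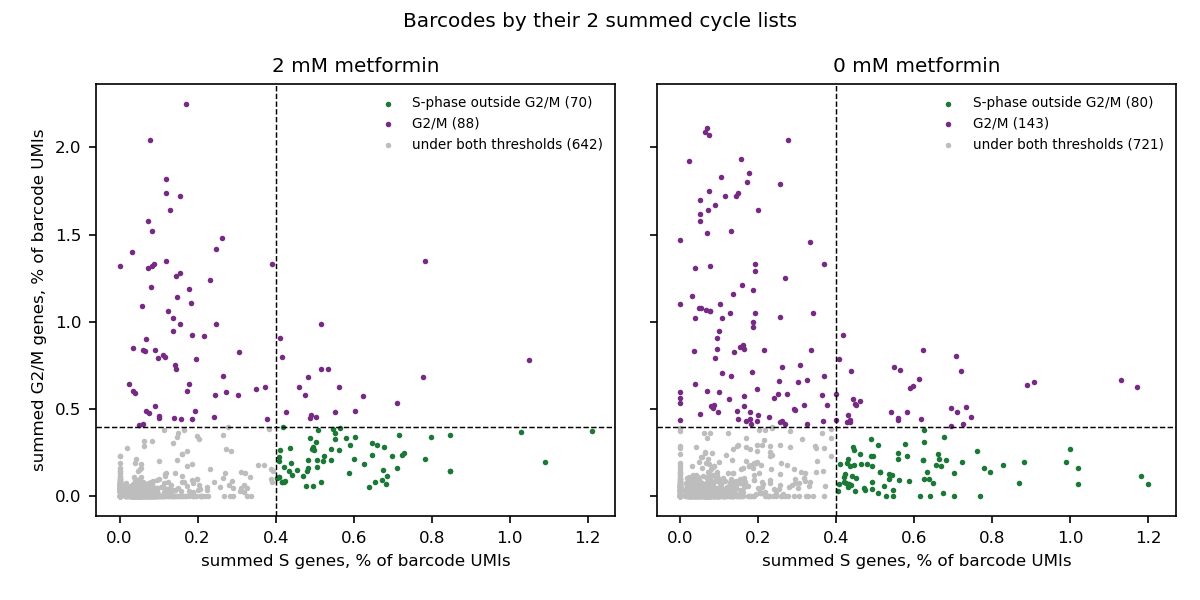
Each point is a barcode with at least 1000 UMIs, placed by the share of its UMIs in the 20 S genes (horizontal axis, %) and in the 12 G2/M genes (vertical axis, %), at 2 mM (left) and 0 mM (right). Dashed lines mark the thresholds of 0.4%; the 70 and 80 S-phase barcodes lie to the right of the vertical line and under the horizontal one, and reach 1.21% and 1.20% on the horizontal axis.

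The S sum of the members themselves was spread above its threshold without a gap. It ran from 0.404% to 1.21% of UMIs with a median of 0.542% at 2 mM, and from 0.405% to 1.20% with a median of 0.546% at 0 mM. Just inside the threshold, between 0.4% and 0.45%, lay 16 barcodes at 2 mM and 19 at 0 mM, and their replication genes outside the rule summed to 3918 and 3967 CPM. Just outside it, between 0.35% and 0.4%, lay 7 and 9 barcodes with 4081 and 4052 CPM of the same genes. Barcodes on either side of the S threshold thus differed little in the summed level of replication transcripts. At the other edge the libraries differed: 16 S-phase barcodes at 2 mM had a G2/M sum of 0.3% to under 0.4%, against 4 at 0 mM. The median G2/M sum of S-phase barcodes was 0.209% at 2 mM and 0.138% at 0 mM. A further 20 barcodes at 2 mM and 35 at 0 mM passed both thresholds and are counted as G2/M; their replication genes stood at 5006 and 4650 CPM.

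Over all barcodes with at least 1000 UMIs, the difference in the share of S-phase barcodes between the doses had bounds that included 0. With every barcode thinned to 1000 UMIs and called S-phase at 4 or more S UMIs and under 4 G2/M UMIs, it was 6.88% at 2 mM (95% exact binomial interval 5.22 to 8.86; 55 of 800) and 9.11% at 0 mM (7.35 to 11.1; 86 of 944). The difference of -2.24 percentage points had bounds of -5.91 and 1.5, formed from the outer ends of both intervals. Bounds formed in this way are wider than a 95% interval of the difference, so including 0 does not show that shares were alike. With all UMIs the shares were 8.75% at 2 mM (6.88 to 10.9) and 8.47% at 0 mM (6.78 to 10.4), a difference of 0.275 points with bounds of -3.55 and 4.15. At 1000 UMIs the class of single barcodes was uncertain, since 41 of the 70 members at 2 mM and 60 of the 80 at 0 mM were called S-phase again. Among barcodes with at least 8000 UMIs the share was 23.1% of 65 at 2 mM (13.5 to 35.2) and 10.0% of 120 at 0 mM (5.27 to 16.8). The difference was 13.1 points, and its bounds of -3.29 and 29.9 included 0 but are too wide to settle whether deep barcodes differed. Bounds also included 0 at lower depth, with 5.66% at 2 mM and 7.41% at 0 mM among barcodes of 1000 to 2000 UMIs (-8.50 to 5.23 points), 5.57% and 7.19% from 2000 to 4000 UMIs (-7.61 to 4.32), and 11.9% and 9.90% from 4000 to 8000 UMIs (-5.89 to 10.2).

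The 20 S genes of the rule are described without weighing their levels, because they chose the barcodes. TYMS and PCNA were the most abundant. TYMS, thymidylate synthase, made up 14.5% of the S sum at 2 mM and 14.9% at 0 mM, with 821 and 855 CPM. PCNA made up 12.7% and 11.1%, with 717 and 638 CPM, and was seen in 60 of 70 and 63 of 80 barcodes. The helicase genes MCM2 to MCM7 spanned 115 CPM (MCM2) to 512 CPM (MCM3) at 2 mM and 129 to 501 CPM at 0 mM. UHRF1, which directs maintenance methylation behind the fork, was the least abundant, with 10 UMIs at 2 mM and 9 at 0 mM. Relative to the other barcodes of the same library, the 20 genes were 2.73 to 20.1 times as high at 2 mM and 2.14 to 7.97 times at 0 mM. CCNE2, the cyclin that activates CDK2 at the G1/S transition, had the highest ratio at 2 mM (109 CPM, against 5.43 CPM in other barcodes). SLBP, the stem-loop binding protein of histone mRNAs, had the lowest there (238 CPM against 87.3 CPM).

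Between doses, 17 of these genes lay within 1.5-fold of each other in S-phase barcodes, and the rule held their sum above the same threshold in both libraries. Of the 20, 10 were above a ratio of 1 at 2 mM over 0 mM, and their median log2 ratio was -0.02. RRM2 had 232 CPM in 40 barcodes at 2 mM against 142 CPM in 26 barcodes at 0 mM, a ratio of 1.64 (95% exact conditional interval 1.15 to 2.36). CDC6, which loads the MCM ring, had 148 CPM at 2 mM against 252 CPM at 0 mM, a ratio of 0.589 (0.413 to 0.833). UNG, the uracil-DNA glycosylase, had 118 CPM at 2 mM against 189 CPM at 0 mM, a ratio of 0.623 (0.415 to 0.923). No other S gene of the rule was past 1.5-fold. RRM2 was also high in G2/M barcodes, and its log2 ratio of 0.71 went to -0.07 when the G2/M threshold was set at 0.8%.

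**Figure D2:**
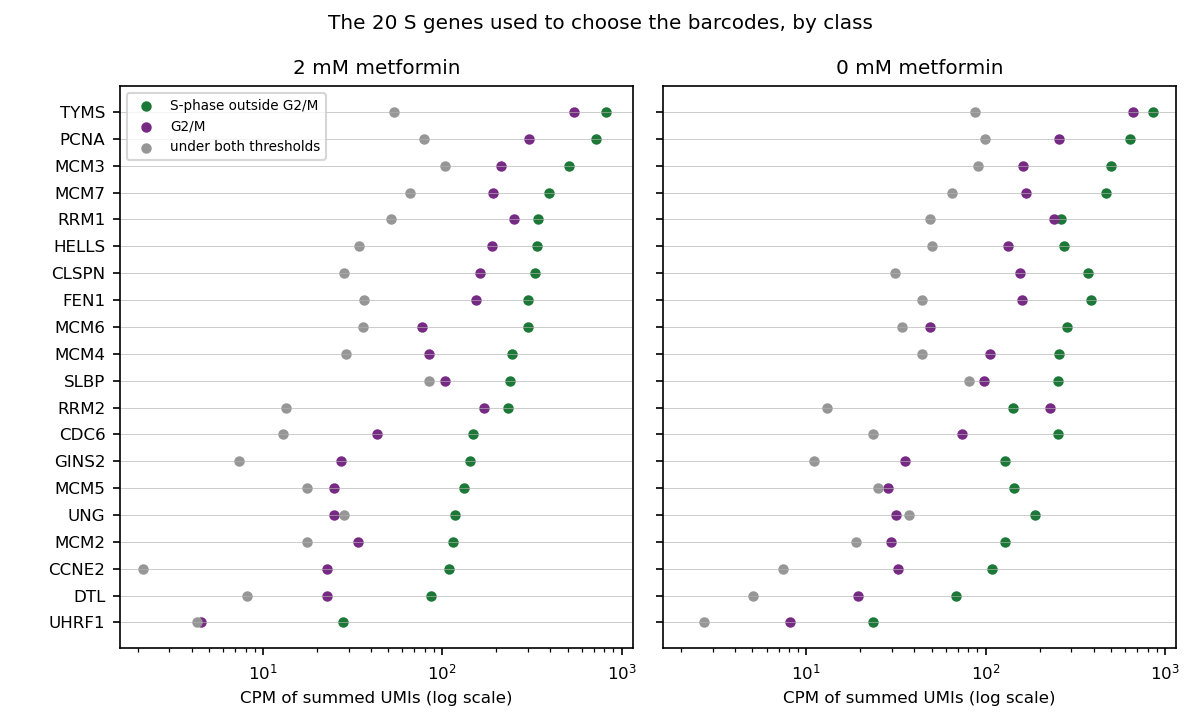
CPM of summed UMIs (log scale) for the 20 S genes that chose the barcodes, in S-phase barcodes, G2/M barcodes and barcodes under both thresholds, at 2 mM (left) and 0 mM (right). S-phase barcodes were highest for 20 genes at 2 mM and for 19 at 0 mM, the exception being RRM2, at 142 CPM in S-phase and 228 CPM in G2/M barcodes.

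Beyond the 32 genes of the rule, S-phase barcodes had higher transcripts of the replication machinery, of DNA repair, of nucleotide synthesis and of kinetochore assembly than the other barcodes of their library, and lower interferon transcripts. Kinetochore assembly transcripts were higher still in G2/M barcodes. Of 3892 genes with at least 50 CPM in either class and at least 50 UMIs in all, in each library, 15.3% were at least 1.5-fold higher in S-phase barcodes at 2 mM and 11.9% at least 1.5-fold lower. At 0 mM 11.6% were higher and 10.4% lower. In both libraries 309 genes, 7.94%, were higher and 185, 4.75%, were lower. The choice of barcodes by S genes fixes which way co-expressed genes go, so these counts describe the cells and are no test. S-phase barcodes were also deeper than the others, and the part of depth in these ratios was not tested.

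Replication genes outside the rule were the group with the highest ratios. Of 40 listed genes, 25 were compared; 23 at 2 mM and 24 at 0 mM were at least 1.5-fold higher, 23 in both libraries, and the median log2 ratio was 1.71 at each dose, against 0.05 and 0.06 over all genes. CDC45, the helicase activator, had 106 CPM in S-phase and 7.97 CPM in other barcodes at 2 mM, a ratio of 13.4 (7.70 to 23.7), and 105 against 14.4 CPM at 0 mM, a ratio of 7.31 (4.75 to 11.1). MCM10, which helps that helicase start, had 132 against 12.7 CPM at 2 mM and 102 against 17.6 CPM at 0 mM. KIAA0101, the PCNA-associated factor, was the most abundant member, at 650 against 121 CPM at 2 mM and 480 against 147 CPM at 0 mM. The clamp loader subunits RFC2 to RFC5 were 2.73 to 5.47 times as high in S-phase barcodes, while RFC1 stood at only 1.40 and 1.48 and POLE4, a small polymerase epsilon subunit, at 1.31 and 1.66. LIG1, which seals nicks between lagging-strand fragments, had ratios of 4.64 (3.31 to 6.45) at 2 mM and 4.06 (2.90 to 5.62) at 0 mM. GMNN, the inhibitor of relicensing that accumulates in S and G2, had 319 against 97.8 CPM at 2 mM and 323 against 126 CPM at 0 mM. The 15 replication genes not compared, such as CDT1, ORC1 and POLE, had at most 25 UMIs in S-phase barcodes of either library.

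Levels of the summed replication list followed the S sum over its whole range, also below the threshold. In barcodes outside G2/M the list stood at 915 CPM at 2 mM against 966 CPM at 0 mM where the S sum was under 0.1%, at 3192 and 3387 CPM between 0.3% and 0.4%, and at 5012 and 5572 CPM from 0.7%. Counting intervals of the 2 doses overlapped in each of the 7 bins, least so between 0.2% and 0.3%, with 2186 CPM (1899 to 2505) at 2 mM and 2690 CPM (2473 to 2921) at 0 mM. S-phase barcodes as a whole had 4590 CPM at 2 mM against 4528 CPM at 0 mM, and G2/M barcodes 3175 and 2918 CPM.

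**Figure D3:**
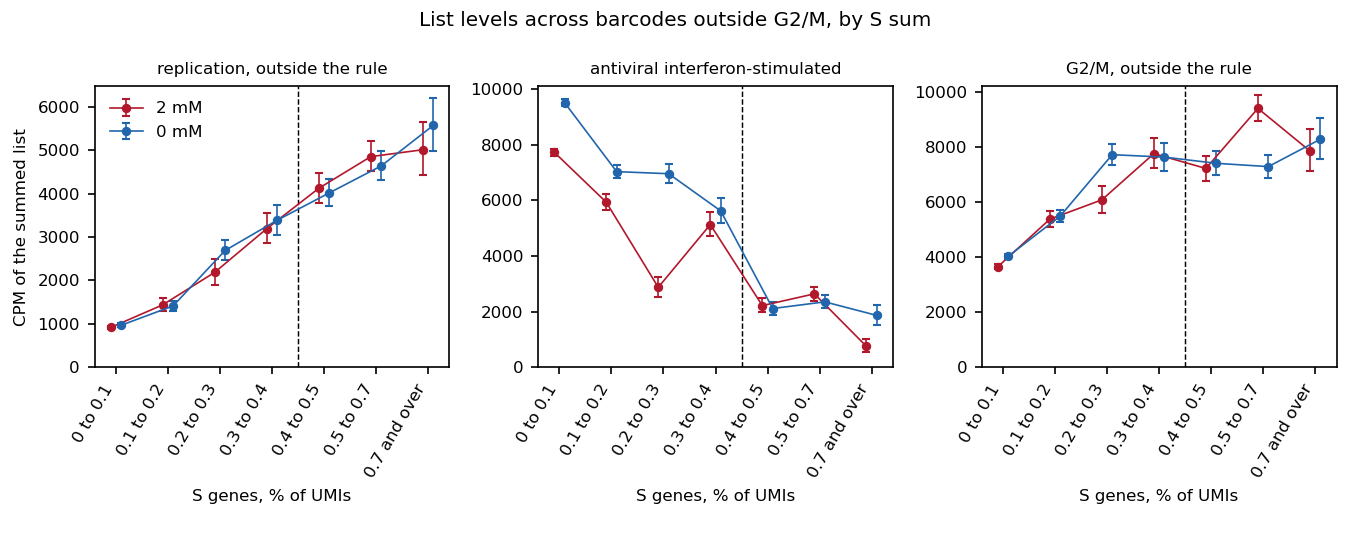
CPM (vertical axes, from 0) of 3 summed lists, none containing a gene of the rule, in barcodes outside G2/M binned by the share of their UMIs in the S genes (horizontal axis, %), at 2 mM and 0 mM; bars are exact 95% counting intervals and the dashed line is the 0.4% threshold. Replication transcripts stood at 915 CPM (2 mM) and 966 CPM (0 mM) in the lowest bin and at 5012 and 5572 CPM in the highest, interferon transcripts at 7733 and 9515 CPM in the lowest and 751 and 1863 CPM in the highest, and G2/M transcripts between 7214 and 9394 CPM from 0.3% up.

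Enzymes of nucleotide synthesis were higher in S-phase barcodes too, less so than the fork genes. Of 16 compared, 13 at 2 mM and 13 at 0 mM were at least 1.5-fold higher, 11 in both, with median log2 ratios of 1.19 and 0.88. TK1, the thymidine kinase of the salvage route, had 403 against 53.9 CPM at 2 mM, a ratio of 7.47 (5.90 to 9.46), and 357 against 104 CPM at 0 mM, a ratio of 3.45 (2.82 to 4.19). DUT, which keeps uracil out of DNA by cleaving dUTP, had 748 against 197 CPM at 2 mM and 522 against 170 CPM at 0 mM. The purine enzyme gene ADSL, with 1.02 at 2 mM and 1.22 at 0 mM, was not past 1.5-fold in either library, and ATIC, with 1.21 and 1.51, was past it at 0 mM.

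DNA repair genes were higher in S-phase barcodes of both libraries. All 21 compared at 2 mM and 19 of them at 0 mM were past 1.5-fold, 19 in both, with median log2 ratios of 1.5 and 0.99. BRCA1, a gene of homologous recombination, had ratios of 4.70 (2.97 to 7.32) at 2 mM and 4.91 (3.30 to 7.20) at 0 mM. MSH6, a mismatch recognition subunit, had 246 CPM in S-phase barcodes at 2 mM, against 72.6 CPM in G2/M barcodes and 65.5 CPM under both thresholds. At 0 mM MSH6 had 220 CPM, against 51.8 and 56.9 CPM. MSH6 thus stood out in S-phase barcodes against both other classes, whereas ATAD2, a chromatin ATPase induced by E2F, had 426 and 394 CPM in S-phase barcodes and still 302 and 249 CPM in G2/M barcodes.

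The gene with the clearest difference outside the rule in both libraries was FAM111B, a protease gene of the FAM111 family whose sister protein acts at replication forks. It had 224 CPM in S-phase barcodes, 77.1 CPM in G2/M barcodes and 12.9 CPM under both thresholds at 2 mM, and 254, 71.1 and 10.0 CPM at 0 mM. Against all other barcodes its ratio was 9.67 (6.87 to 13.6) at 2 mM and 10.1 (7.56 to 13.5) at 0 mM. Also among the 12 highest were PKMYT1, the kinase that holds CDK1 inactive, with ratios of 8.99 and 6.32, PSMC3IP, a recombination cofactor, with 5.61 and 6.04, and XRCC2, a gene of homologous recombination, with 4.30 and 8.06. Of the genes higher in both libraries that have a promoter in the table, 12.5% of 255 held an E2F motif, against 2.01% of 149 genes that were lower and 4.91% of 3278 genes compared.

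Chromatin and chromosome genes made up a middle group. Of 24 histone chaperone and chromatin copying genes, 14 at 2 mM and 11 at 0 mM were at least 1.5-fold higher and 0 lower, with median log2 ratios of 0.77 and 0.53. The summed list was higher in G2/M barcodes (8921 CPM at 2 mM and 8773 CPM at 0 mM) than in S-phase barcodes (7513 and 7173 CPM). CHAF1A, the large subunit of the chaperone that deposits new histones behind the fork, had ratios of 4.16 and 4.75, and DNMT1, the maintenance methyltransferase, 2.64 and 2.51. HDAC1 (1.01 and 1.03) and the replication-independent histone gene H3F3B (1.01 and 0.803) did not follow. Of 17 cohesin and kinetochore assembly genes, 15 at 2 mM and 9 at 0 mM were higher, with median log2 ratios of 1.41 and 0.73. This summed list was also higher in G2/M barcodes (4605 CPM at 2 mM and 4845 CPM at 0 mM) than in S-phase barcodes (3842 and 3482 CPM). ESCO2, which acetylates cohesin during replication, had 4.19 and 2.14, and the centromere gene MLF1IP 5.11 and 2.75. Of 21 replication-dependent histone genes in the table only 3 were compared; such mRNAs end in a stem-loop and mostly lack a poly(A) tail. HIST1H4C had 742 against 308 CPM at 2 mM and 407 against 449 CPM at 0 mM, whereas HIST1H2AC had 2.80 against 75.3 CPM and 15.7 against 72.8 CPM.

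G2/M genes outside the rule stood between the classes. Against other barcodes, 13 of 35 were at least 1.5-fold higher and 2 lower at 2 mM, and 0 higher and 12 lower at 0 mM, with median log2 ratios of 0.37 and -0.31. These signs moved with the class borders: at a G2/M threshold of 0.2% the medians were -0.32 at 2 mM and -0.71 at 0 mM, at 0.8% they were 0.90 and 0.22, and without the deepest 5% of barcodes that at 0 mM was 0.08. Against barcodes under both thresholds the medians were 1.62 at 2 mM and 1.15 at 0 mM, and against G2/M barcodes -1.39 and -1.91. MKI67, the proliferation antigen, had 370 CPM in S-phase, 909 CPM in G2/M and 34.0 CPM in low barcodes at 2 mM, and 207, 898 and 54.2 CPM at 0 mM. CCNB1, a gene of the rule, was at 28.0 CPM at 2 mM against 44.6 CPM at 0 mM in S-phase barcodes, against 646 and 1012 CPM in G2/M barcodes. CCNB1 was the exception at 2 mM, where 11 of the 12 G2/M genes of the rule had a ratio above 1 over all other barcodes. At 0 mM 1 of the 12 did. At 2 mM CDK1 had 230 against 86.9 CPM in other barcodes, UBE2C 423 against 201 CPM and CENPF 437 against 436 CPM.

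**Figure D4:**
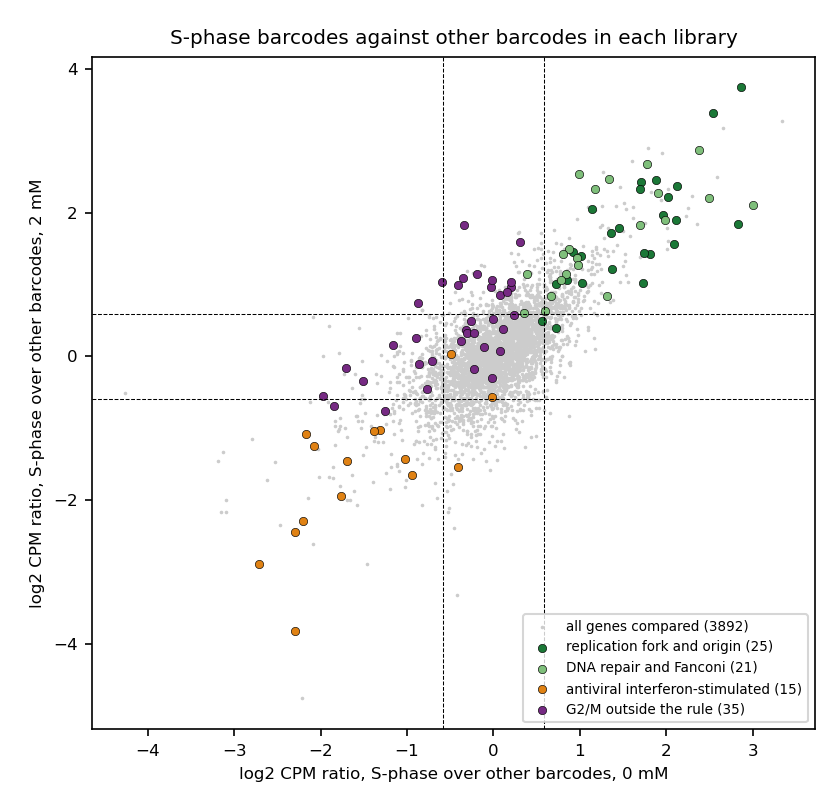
Log2 CPM ratio of S-phase over other barcodes at 2 mM (vertical axis) and at 0 mM (horizontal axis) for 3892 genes, with 4 lists coloured and dashed lines at 1.5-fold. Replication and repair genes lie to the upper right, 12 of 15 interferon-stimulated genes lie past 1.5-fold to the lower left, and G2/M genes outside the rule lie higher on the 2 mM axis (median 0.37) than on the 0 mM axis (median -0.31).

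Interferon transcripts were the group with the lowest ratios in S-phase barcodes. Of 15 antiviral interferon-stimulated genes compared, 13 at 2 mM and 12 at 0 mM were at least 1.5-fold lower, 12 in both, with median log2 ratios of -1.45 and -1.69. IFIT2, an inhibitor of viral translation, had 53.2 CPM in S-phase and 744 CPM in other barcodes at 2 mM, a ratio of 0.0715 (0.0430 to 0.112). At 0 mM IFIT2 had 160 against 782 CPM, a ratio of 0.205 (0.156 to 0.263). OASL had 53.2 against 393 CPM at 2 mM and 73.5 against 479 CPM at 0 mM, and the RNA sensor gene DDX58 92.4 against 354 CPM and 121 against 408 CPM. ISG15, the ubiquitin-like modifier, had 722 against 1707 CPM at 2 mM and 567 against 2373 CPM at 0 mM. BST2, a tether of budding virus, was not lower by 1.5-fold, at 0.676 and 0.992.

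The lower sum came with fewer barcodes of high interferon level, and most members had little of it. Per barcode, the list took a median of 0.0831% of UMIs at 2 mM and 0.107% at 0 mM in S-phase barcodes, against 0.174% and 0.274% in other barcodes. The highest S-phase barcode reached 3.15% at 2 mM and 1.97% at 0 mM. At least 1% was reached by 4 of 70 S-phase barcodes at 2 mM (5.71%) and 6 of 80 at 0 mM (7.50%), against 17.7% of 730 and 24.2% of 864 other barcodes. G2/M barcodes reached it in 12.5% of 88 and 7.69% of 143, so low interferon was not particular to S-phase barcodes. Just outside the S threshold, between 0.35% and 0.4%, 7 barcodes at 2 mM had 8323 CPM of the list and 9 at 0 mM 1748 CPM. A single barcode held 14.6% of the S-phase interferon UMIs at 2 mM and another 14.1% at 0 mM. Of 7 measured interferon lambda and chemokine genes, 4 were compared (IFNL1, CXCL10, CXCL11 and CCL5), and all 4 were at least 1.5-fold lower in both libraries. Their median log2 ratios, -1.66 at 2 mM and -1.82 at 0 mM, were below those of the antiviral list. IFNL2 and IFNL3, too sparse to be compared, had 0 UMIs in S-phase barcodes at 2 mM. At 0 mM they had 6 and 3 UMIs, for each gene from 1 barcode, and their CPM ratios were 4.46 and 1.36. IFNL1 had 0 UMIs in S-phase barcodes at 2 mM, which allows up to 8.40 CPM by the limit of 3 counts, and 10 UMIs in 2 barcodes at 0 mM; other barcodes held 368 and 310 UMIs in 29 and 36 barcodes.

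NF-kB targets and chemokines were also lower, in smaller measure, whereas acute phase genes were not: 0 of 3 compared were past 1.5-fold in either library, with median log2 ratios of -0.10 at 2 mM and -0.15 at 0 mM. Of 9 NF-kB targets and chemokines, 6 at 2 mM and 9 at 0 mM were past 1.5-fold lower, with median log2 ratios of -0.67 and -0.90. Against G2/M barcodes alone the medians were 0.37 at 2 mM and -0.11 at 0 mM, so low levels were not particular to S-phase barcodes. SOD2, the mitochondrial superoxide dismutase, had 154 against 499 CPM at 2 mM and 165 against 600 CPM at 0 mM, and BIRC3, an apoptosis inhibitor, 0.318 and 0.324 as ratios. SOD2 was as low in G2/M barcodes (127 and 140 CPM) as in S-phase barcodes. IGFBP6, a binding protein of insulin-like growth factors, had 176 against 895 CPM at 2 mM and 160 against 888 CPM at 0 mM. In G2/M barcodes IGFBP6 was also low, at 220 and 260 CPM. NOV, a matricellular protein gene, had 30.8 against 138 CPM at 2 mM and 13.1 against 116 CPM at 0 mM, from 11 and 5 S-phase UMIs. G2/M barcodes had 29.5 and 40.6 CPM of NOV.

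Between the doses, S-phase barcodes showed acute phase genes higher at 2 mM and ID1, ID3, VIM and ACTB lower, as the other barcodes did. Most G2/M genes outside the rule were higher at 2 mM in S-phase barcodes and lower in the other barcodes. Within S-phase barcodes 3032 genes reached 50 CPM in 1 of the libraries and 50 UMIs over both. Of these, 9.43% were at least 1.5-fold higher at 2 mM and 7.49% at least 1.5-fold lower. In the other barcodes, which hold 2761846 UMIs at 2 mM and 3970818 at 0 mM, 3.03% of the same genes were higher and 3.99% lower. An interval clear of 1 was had by 209 of the higher and 153 of the lower genes in S-phase barcodes, and by 92 and 121 in other barcodes. The genes were chosen by their S-phase counts, and S-phase barcodes hold far fewer UMIs. Shares past 1.5-fold in the S-phase and other barcodes therefore carry unlike counting error and do not show a wider dose difference in S-phase barcodes. The split depended on scaling, with 232 genes higher and 286 lower under TMM factors. Intervals treat every UMI as a separate draw and leave out the spread between barcodes and between cultures.

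Acute phase genes and some chemokine genes were higher at 2 mM in S-phase barcodes. All 3 acute phase genes compared were past 1.5-fold, with a median log2 ratio of 1.14, against 1.33 in the other barcodes. SAA1, serum amyloid A, had 3212 CPM in 66 of 70 barcodes at 2 mM and 1522 CPM in 59 of 80 at 0 mM, a ratio of 2.11 (1.91 to 2.34) beside 2.46 in other barcodes. SAA2 had 977 CPM at 2 mM against 226 CPM at 0 mM, a ratio of 4.33 (3.41 to 5.55). CXCL1, which attracts neutrophils, had 381 and 110 CPM, a ratio of 3.46 (2.43 to 5.01), and complement C3 had 381 and 173 CPM. Of 7 NF-kB targets and chemokines compared between doses, 3 were at least 1.5-fold higher at 2 mM and 0 lower. Their median log2 ratio was 0.28, with an interval over genes of -0.10 to 1.79, against -0.02 in other barcodes. The carboxypeptidase gene CPVL had the highest ratio among the 3032 genes compared, 8.54 (4.41 to 18.5), from 80 UMIs in 33 barcodes at 2 mM and 10 UMIs in 5 barcodes at 0 mM; in other barcodes its ratio was 4.70. PXDN, a matrix peroxidase, had 148 CPM at 2 mM against 34.1 CPM at 0 mM, MIF 157 and 42.0 CPM, and PODXL, a sialomucin, 204 and 57.7 CPM.

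Genes lower at 2 mM were led by ID3, an inhibitor of helix-loop-helix factors. It had 25.2 CPM in S-phase barcodes at 2 mM against 194 CPM at 0 mM, a ratio of 0.130 (0.0571 to 0.260), next to 0.131 in other barcodes. Vimentin, VIM, had 1599 CPM at 2 mM against 3555 CPM at 0 mM, a ratio of 0.45 (0.407 to 0.496), and ACTB 627 and 1412 CPM, a ratio of 0.444 (0.379 to 0.520). NQO1, a quinone reductase under NRF2, had 504 CPM at 2 mM against 1228 CPM at 0 mM. IGFBP7 had 739 and 1650 CPM, and the prion protein gene PRNP 249 and 538 CPM. FAM211A had 72.8 CPM at 2 mM against 278 CPM at 0 mM, a ratio of 0.262 (0.164 to 0.405), below the 0.607 (0.542 to 0.678) of other barcodes. IFIT2 had 53.2 CPM at 2 mM against 160 CPM at 0 mM, a ratio of 0.332 (0.188 to 0.564) where other barcodes had 0.951, but 52.6% of its 19 UMIs at 2 mM came from 1 barcode.

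Replication genes lay on both sides of 1 between doses in S-phase barcodes. Of 24 replication genes compared, 1 was at least 1.5-fold higher at 2 mM and 3 lower, with a median log2 ratio of -0.02, against 0.04 over all genes. RFC3 was the higher one, at 134 CPM at 2 mM against 89.2 CPM at 0 mM, with an interval that included 1 (0.951 to 2.41). ORC6, a subunit of the origin recognition complex, was lower, at 129 CPM at 2 mM against 202 CPM at 0 mM, a ratio of 0.638 (0.433 to 0.931), and so was the primase gene PRIM1 (0.628, 0.386 to 1.0). Of 19 repair genes 4 were higher and 2 lower, with a median log2 ratio of 0.26, against -0.26 in other barcodes. The Fanconi helicase gene BRIP1 had 123 CPM at 2 mM against 52.5 CPM at 0 mM, a ratio of 2.35 (1.36 to 4.21), and FANCI 246 and 126 CPM, a ratio of 1.96 (1.36 to 2.84). PARP1, the sensor of strand breaks, had 451 CPM at 2 mM against 257 CPM at 0 mM, a ratio of 1.75 (1.36 to 2.28) beside 1.42 in other barcodes.

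Most G2/M genes outside the rule were higher at 2 mM in S-phase barcodes, and those compared were lower at 2 mM in the other barcodes. In S-phase barcodes 22 of 29 were above a ratio of 1, 10 were at least 1.5-fold higher and 2 lower, with a median log2 ratio of 0.38. In other barcodes 0 of the same 29 were above 1, 15 were at least 1.5-fold lower, and the median was -0.59. Summed over the list, S-phase barcodes had 8306 CPM at 2 mM against 7485 CPM at 0 mM. Per barcode, the medians were close, at 0.755% and 0.725% of UMIs. By S sum, the list was higher at 2 mM only between 0.5% and 0.7% (9394 against 7281 CPM). It was lower at 2 mM between 0.4% and 0.5% (7214 against 7400 CPM) and from 0.7% (7846 against 8274 CPM). NUSAP1, a spindle protein gene, had 336 CPM at 2 mM against 152 CPM at 0 mM in S-phase barcodes, a ratio of 2.21 (1.60 to 3.08), and a ratio of 0.711 (0.634 to 0.797) in other barcodes. AURKB, the kinase of the chromosomal passenger complex, had 146 and 68.2 CPM in S-phase barcodes, a ratio of 2.13 (1.31 to 3.56), and 0.475 (0.381 to 0.589) in others. MKI67 had 1.78 (1.34 to 2.39) against 0.660, and CDC20, the activator of the anaphase-promoting complex, 1.77 (1.14 to 2.77) against 0.576. HIST1H4C had 742 CPM at 2 mM against 407 CPM at 0 mM in S-phase barcodes, a ratio of 1.82 (1.49 to 2.24), against 0.687 in others.

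This difference moved with where the G2/M threshold lay. The other barcodes contain the G2/M class, which made up 11.0% of barcodes at 2 mM (88 of 800) and 15.1% at 0 mM (143 of 944). S-phase barcodes at 2 mM lay closer to the G2/M threshold than those at 0 mM, as given above. With the G2/M threshold at 0.2%, which left 31 S-phase barcodes at 2 mM and 58 at 0 mM, the median log2 dose ratio of the list in S-phase barcodes was 0.11, with the threshold at 0.8% it was 0.12, and with an S threshold of 0.6% it was 0.16. HIST1H4C turned to a log2 ratio of -0.66 at 0.2%. Among G2/M genes of the rule, held under the same threshold in both libraries, 11 of 12 were not below 1, with UBE2C at 1.99 (1.51 to 2.64) and CENPF at 1.81 (1.39 to 2.37), while CCNB1 had 0.628 (0.257 to 1.45) from 10 UMIs at 2 mM and 17 at 0 mM.

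**Figure D5:**
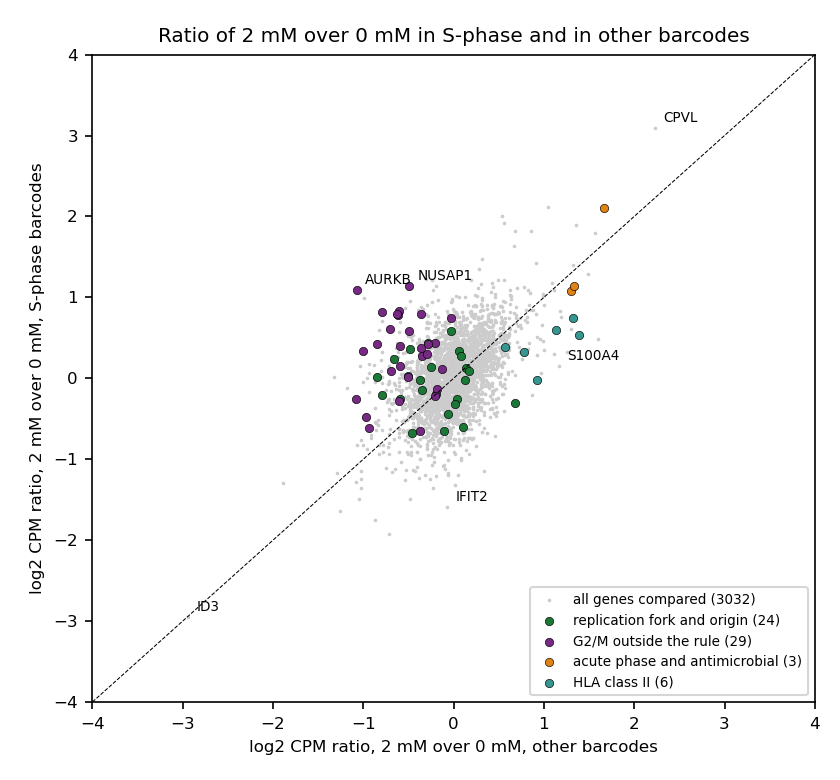
Log2 CPM ratio of 2 mM over 0 mM in S-phase barcodes (vertical axis) and in other barcodes (horizontal axis) for 3032 genes, with 4 lists coloured and the dashed line marking equal ratios. G2/M genes outside the rule lie left of 0 on the horizontal axis (median -0.59) and mostly above 0 on the vertical axis (median 0.38), while the acute phase genes lie near the line.

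Other genes whose dose ratio differed between S-phase and other barcodes included S100A4, and HLA class II genes showed a smaller median. In 193 of 3032 genes the counting interval in S-phase barcodes lay apart from that in other barcodes. S100A4, a calcium-binding protein tied to motility, had 1274 CPM at 2 mM against 1152 CPM at 0 mM in S-phase barcodes, a ratio of 1.11 (0.968 to 1.26). In other barcodes it had 2154 and 956 CPM, a ratio of 2.25 (2.16 to 2.35). G2/M barcodes had 1469 CPM at 2 mM against 802 CPM at 0 mM. Of 6 HLA class II genes, 2 were at least 1.5-fold higher at 2 mM in S-phase barcodes and 5 in other barcodes, with median log2 ratios of 0.47 and 1.03. HLA-DRA, the alpha chain of HLA-DR, had 736 CPM at 2 mM against 485 CPM at 0 mM in S-phase barcodes, a ratio of 1.52 (1.25 to 1.84), against 2.19 in others. HLA-DPA1 had 266 and 270 CPM, a ratio of 0.984 (0.737 to 1.31), against 1.90.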

How the data were processed

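The authors deposited whole UMI counts for genes in 2000 barcodes, 1000 for each library. Tools listed in the submitters' processing notes are bcl2fastq and STAR 2.5.0a, and the build is hg19; barcode selection, UMI collapsing, annotation and strand use went unstated in the sources used here. Gene families with close relatives or processed copies (SAA1 and SAA2, IFIT, HLA-DR, histones, actins, mitochondrially encoded genes) therefore carry uncertain counts. Counts were summed over S-phase, G2/M and remaining barcodes with at least 1000 UMIs, and divided by the class total to give CPM. Intervals of ratios are exact conditional Clopper-Pearson intervals at 95%. They were run on simulated counts that carry counting error only, as the intervals assume, so that check says nothing about spread between barcodes. Higher or lower means at least 1.5-fold. Doublets were not called, as those of a single line mix similar cells; an alternative left out the deepest 5% of barcodes. Python 3.11.15, numpy 2.4.6, scipy 1.17.1, pandas 2.3.3 and, for TMM factors only, edgeR 4.0.16 in R 4.3.3 were used.

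Named genes are those of the rule, the 12 highest and 8 lowest outside it by the interval bound nearest 1 in both libraries, the 12 highest and 12 lowest between doses, up to 6 genes with separate intervals in S-phase and other barcodes, up to 3 members at each end of a list, and cell type markers; mitochondrially encoded and ribosomal protein genes were left out of the rankings. Other genes were named after their values were seen, and a few genes are not reported here. The members and the 27 gene lists were chosen with earlier results of these data known.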

Additional observations from a re-analysis of the deposited data

Results flagged for a closer look

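The G2/M list outside the rule had a median log2 ratio of S-phase over other barcodes that was 0.68 higher at 2 mM than at 0 mM, with 0.37 at 2 mM and -0.31 at 0 mM, so that the medians lay on opposite sides of 0; at a G2/M threshold of 0.2% both were below 0 (-0.32 and -0.71), and at 0.8% both above it (0.90 and 0.22). NUSAP1 differed in the same sense by 1.64 on the log2 scale, with a ratio of 2.05 (1.66 to 2.51) at 2 mM and 0.660 (0.497 to 0.861) at 0 mM. CDC20 differed by 1.62, with 1.68 (1.24 to 2.24) at 2 mM and 0.547 (0.378 to 0.769) at 0 mM. With 1 library per dose the difference was not tested. The share of G2/M barcodes among all those with at least 1000 UMIs was 11.0% at 2 mM and 15.1% at 0 mM, and its part in these values was not tested.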

How the results depend on the processing

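The difference in the share of S-phase barcodes stayed between -2.89 and 0.275 points over all alternatives, inside the bounds of -5.91 and 1.5. Genes higher in S-phase barcodes of both libraries numbered 167 at a minimum of 100 CPM, where 92 were lower, and 416 were lower at a minimum of 20 CPM; a stricter minimum tests fewer genes. Between doses in S-phase barcodes, 123 genes were higher and 90 lower with an S threshold of 0.6%, and 177 were higher with a G2/M threshold of 0.2%, from 26 and 31 S-phase barcodes at 2 mM. The replication median at 2 mM was 1.29 at a G2/M threshold of 0.2% and 1.37 with classes from thinned barcodes, and the interferon-stimulated median at 2 mM was -1.03 without the deepest 5% of barcodes. Of reported values of at least 1.5-fold, directions turned for the histone list, HIST1H4C, G0S2, RRM2 and CDCA3, and the cause was not tested. The histone list had 0.04 for S-phase over other at 2 mM at a minimum of 100 CPM. Its reported dose value rests on HIST1H4C alone. That value went to -0.09 and -0.20 at S thresholds of 0.3% and 0.6%. It went to -0.66 and -0.40 at G2/M thresholds of 0.2% and 0.8%, and to -0.29 with thinned classes. HIST1H4C itself had the same -0.20 at an S threshold of 0.6% and -0.66 at a G2/M threshold of 0.2%. G0S2 had 0.54 at an S threshold of 0.6%, and RRM2 and CDCA3 had -0.07 and -0.14 at a G2/M threshold of 0.8%. With TMM factors 268 genes were higher and 231 lower in S-phase barcodes of both libraries, and 232 were higher and 286 lower at 2 mM over 0 mM. A tally over 15 settings covered 2549 values of 170 further results. It left out the share of S-phase barcodes, the gene counts and the dose median of the G2/M list outside the rule. Also left out were the medians of S-phase over other barcodes for the replication and antiviral lists. Of the values in the tally, 2352 stayed inside the interval of the reported value, 186 moved out of it and 11 turned. Such an interval can include no difference, so staying inside it does not mean that the direction was kept. Turning was counted only for reported values of at least 1.5-fold. Smaller values that left their interval and changed sign, such as medians of the G2/M list outside the rule, are among those that moved. Leaving out the 5 deepest S-phase barcodes of each library was an alternative chosen after seeing the data. Depth limits genes under 8.40 CPM at 2 mM or 7.87 CPM at 0 mM, and the class of single shallow barcodes. No paired analysis was possible because each dose had 1 library.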

Other observations

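Nucleolar genes linked to MYC, which build ribosomes, were higher in S-phase barcodes of both libraries: 15 of 19 at 2 mM and 11 at 0 mM were at least 1.5-fold higher and 0 lower, with median log2 ratios of 0.70 and 0.73. FBL, the methyltransferase of ribosomal RNA, had 431 against 188 CPM in other barcodes at 2 mM and 325 against 152 CPM at 0 mM, and SRM, spermidine synthase, had ratios of 2.36 and 2.59. Glycolysis genes had medians of 0.26 and 0.32. Of 15, 3 were past 1.5-fold higher at 2 mM and 1 at 0 mM, near the 15.3% and 11.6% of all genes compared. LDHB (1.78 and 1.40) was among the 3 at 2 mM. Cholesterol synthesis genes had medians of 0.17 and 0.44. None of 35 nuclear-encoded complex I genes and none of 13 mitochondrially encoded genes was past 1.5-fold in either library, with medians of 0.12 and 0.14 for complex I and -0.24 and 0.10 for the mitochondrial genome.

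Some genes of cycle arrest and early response lists were lower in S-phase barcodes. Of 7 p53 targets and cycle brakes, 4 were lower in each library, 2 in both, among them CCNG2, a cyclin of resting cells, at 14.0 against 62.6 CPM at 2 mM and 7.87 against 67.2 CPM at 0 mM. GADD45A, a DNA damage response gene, was higher at 2 mM, with a ratio of 1.72, and stood at 0.996 at 0 mM. Immediate early genes had medians of -0.46 at 2 mM and -1.03 at 0 mM, and 3 of 8 were lower in both libraries, JUNB with ratios of 0.253 and 0.310. Of 13 hypoxia targets 7 were lower at 2 mM, with a median of -0.61, and 2 at 0 mM, near the share among all genes compared, with a median of -0.12; NDRG1 had 16.8 against 75.3 CPM at 2 mM and 49.8 against 72.0 CPM at 0 mM. HLA class II genes had medians of -0.80 and -0.19, and epithelial genes -0.08 and 0.24. CDKN2D, a CDK4 and CDK6 inhibitor, had 67.2 CPM in S-phase barcodes at 2 mM against 15.7 CPM at 0 mM, a ratio of 4.27 (1.70 to 12.8) from 24 and 6 UMIs, against 0.684 in other barcodes. CDKN2D fell under the minimum of 50 UMIs over both libraries, so it was not among the genes compared between doses in S-phase barcodes.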
